A study of Mus musculus with 30 samples.

Results

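The genes described here encode the proteins of the cytosolic ribosome in mouse. They were taken by symbol, as the rows named Rpl or Rps with a number and an optional a, x or l, together with Rpsa and the stalk genes Rplp0, Rplp1 and Rplp2. This gave 83 of the 53974 rows of the expression table. Of these, 78 reached at least 1 TPM (a transcript's share of a library's RNA, corrected for transcript length and scaled to a fixed total) in at least 4 of the 12 cultured libraries and were tested. The other 5 are listed at or near 0 throughout. The rule leaves out ribosomal proteins with other symbols (Rps3a1, Fau, Rack1), which are described as a list of their own.

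Neural stem/progenitor cells (NSPCs) from the forebrain of E13.5 C57BL/6 embryos were grown with EGF and FGF, treated for 24 h with 10 mM crotonate, 1 µM MS-275 or DMSO as control, and sequenced in 4 replicates a group. Crotonate is a short-chain fatty acid that feeds histone lysine crotonylation, and MS-275 is an inhibitor of class I histone deacetylases. The labels give DMSO for the controls and do not say whether crotonate was given in it, and the cells are a passaged culture (P1-P3). Forebrain explants of ICR embryos of the same day were compared as 3 crotonate and 3 control samples, and 1 library came from untreated E13.5 C57BL/6 forebrain. Peak lists came from ChIP with pan-crotonyl-lysine (Kcr) and pan-acetyl-lysine (Kac) antibodies in treated and control NSPCs and with H3K9cr and H3K9ac antibodies in the forebrain, from 1 library each.

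A ribosome is built from a small subunit, which decodes the message, and a large subunit, which joins the amino acids and carries a flexible stalk of P proteins that recruits elongation factors. Ribosomal protein mRNAs are among the most abundant of a growing cell, and most begin with a C followed by a run of pyrimidines, the 5′ terminal oligopyrimidine tract. Through this tract, mTOR signalling and the RNA-binding protein LARP1 set how much of these mRNAs is translated. The family has few active genes and many silent processed copies in the genome, so short reads can be shared between a gene and its copies.

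RefSeq (GRCm38.p6) gave a start site for 61 of the 83 genes. A C within 5 bases of the start followed by at least 4 more C or T bases was found in 29 of them (47.5%), against 23.8% of the tested genes. The 61 include the untested Rpl10l, Rpl32l, Rpl39l and Rpl3l, of which Rpl32l has such a run. The 30 bases centred on the start are shown for 7 genes on which the results below turn: both that rose most with MS-275 among well-expressed members, 3 of those that fell most with it, Rpl41, which fell with crotonate, and Rps27, whose reads are split with a copy. Capitals mark the pyrimidine run.
Rps10: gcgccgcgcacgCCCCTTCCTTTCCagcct
Rpl37a: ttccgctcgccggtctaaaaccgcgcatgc
Rpl12: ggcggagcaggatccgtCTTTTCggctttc
Rps25: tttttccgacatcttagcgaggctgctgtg
Rpl13a: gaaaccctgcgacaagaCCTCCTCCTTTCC
Rpl41: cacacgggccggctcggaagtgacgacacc
Rps27: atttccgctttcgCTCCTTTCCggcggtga
These windows lie at chr17:27635230-27635259 (minus strand), chr1:72711245-72711274 (plus), chr2:32961697-32961726 (plus), chr9:44407699-44407728 (plus), chr7:45128731-45128760 (minus), chr10:128549154-128549183 (minus) and chr3:90213634-90213663 (minus), in the order of the lines. The annotated start can miss the used one by some bases, so a window without capitals says only that no such run lies beside the annotated base.

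The TPM of a library summed to between 998182 and 999495 over the rows, and the read depth is unknown because no counts come with these values. Nothing in the labels says that the replicates came from separate cultures or animals, so p-values measure the spread between these samples. Neural progenitor markers were present in the NSPCs at 1 TPM or more for 10 of 10 genes. Their sum was 9035 to 9921 TPM with crotonate, 13570 to 14240 TPM with MS-275 and 9649 to 10180 TPM in control, and with MS-275 3 were higher and 4 lower. Summed neuron markers were 290.2 to 319.2 TPM with crotonate, 387.5 to 404.4 TPM with MS-275 and 320.6 to 341.2 TPM in control, with 6 of 8 tested higher under each treatment. Summed erythroid markers reached at most 1.31 TPM in the NSPCs, and 11530 TPM in the forebrain library. Summed oligodendrocyte markers were 1848 to 2099 TPM with crotonate, 2843 to 3123 TPM with MS-275 and 1686 to 1885 TPM in control. Summed astrocyte markers were 79.6 to 88.1 TPM with crotonate, 94.4 to 120.4 TPM with MS-275 and 47.5 to 58.7 TPM in control. The part of these shifts in the values below was not tested, and in bulk RNA fewer cells of a type and less RNA per cell cannot be told apart.

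The share of all TPM held by the 83 genes was 10.2% ± 0.168 with crotonate, 9.75% ± 0.171 with MS-275 and 9.97% ± 0.209 in control (SD, n = 4 each), and 9.17% in the forebrain library. Crotonate libraries ran from 9.97% to 10.4%, MS-275 libraries from 9.60% to 9.99% and controls from 9.66% to 10.1%, so the groups overlapped. The members' own median in control was 1173 TPM, with quartiles of 839 and 1706 TPM.

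Levels within the family differed widely. Rps24, a small-subunit protein, was the highest member in control, at 3757, 3817, 3757 and 4071 TPM. Rpl23a, at the exit of the peptide tunnel, averaged 3462 TPM, the stalk protein Rplp1 3068 TPM, and the large-subunit proteins Rpl13a and Rpl13 2924 and 2465 TPM. The level of 66 of the 78 members was at least 500 TPM, and Rps20, Rpl5, Rpl12, Rps27 and Rps4l stood far below at 149.8, 113.5, 87.9, 43.0 and 17.5 TPM. Such gaps are levels per row: what a gene shares with its unlisted copies is not counted. Most members were steady between control libraries, with a median coefficient of variation of 3.39%, and 4 exceeded 10% (Rps27, Rps4l, Rps29, Rpl39).

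**Figure D1:**
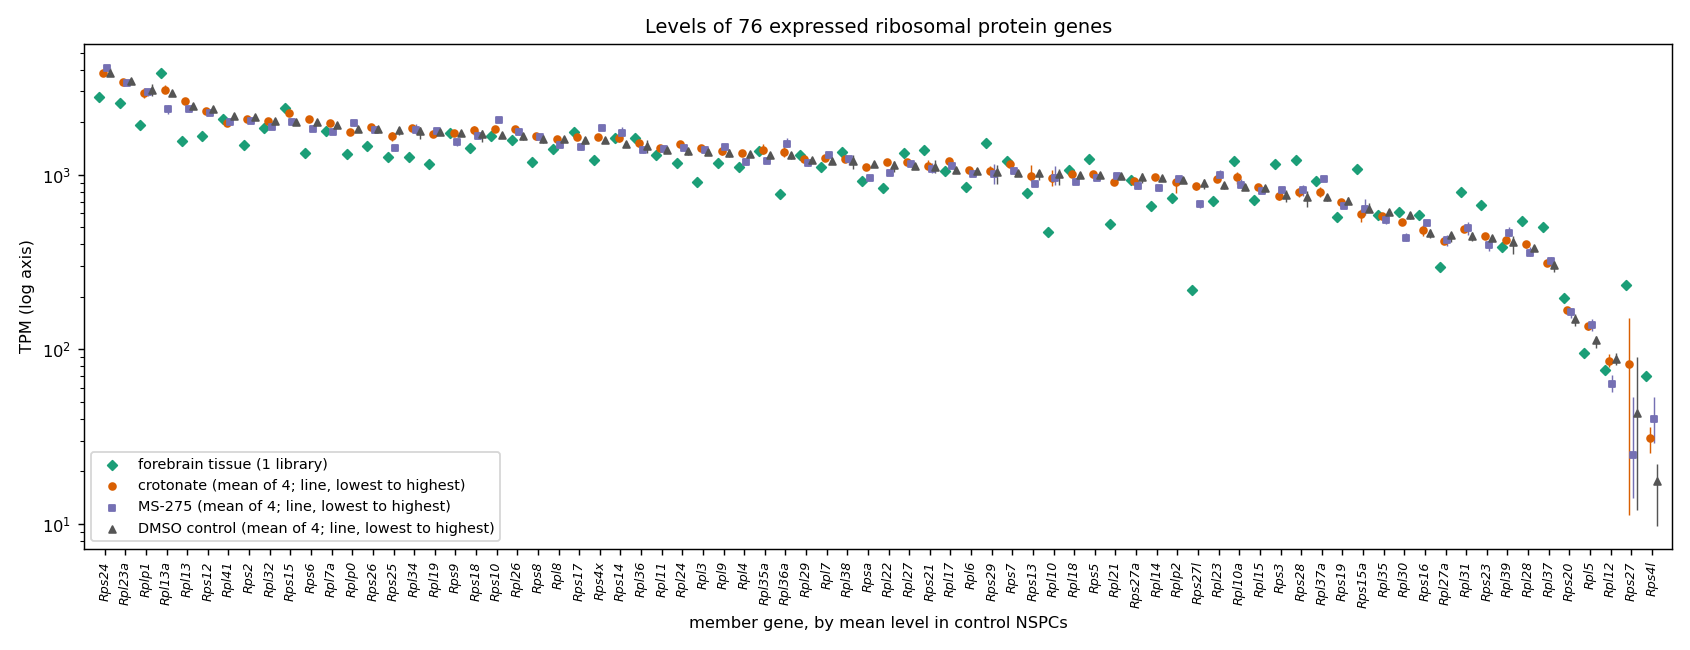
Mean TPM (log axis) of 76 of the 78 expressed ribosomal protein genes (2 are not shown), ordered by their level in control NSPCs, with the single forebrain library and the 3 NSPC groups; lines span the lowest and highest of 4 libraries. The NSPC groups lie close together for most genes from Rps24 (3850 TPM in control) to Rpl37 (302.6 TPM), while Rps27 spreads widely within each group.

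Paralogs with tissue-restricted use were silent, as were Rpl32l and Rpl6l. Rpl10l, a retrogene of the X-linked Rpl10 used in male germ cells, and Rpl39l, a testis paralog of Rpl39, were listed at 0 in control, as was Rpl32l. Rpl3l, a striated muscle paralog of Rpl3, averaged 0.107 TPM in control and Rpl6l, a pseudogene by RefSeq, 0.0727 TPM. None of these 5 had a peak in any of the 8 lists. Of the other symbols ending in l, Rps27l, a p53-inducible paralog of Rps27, was well expressed at 894.9 TPM ± 49.1 in control (SD, n = 4). Rps4l, annotated as a transcribed pseudogene, was low.

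Crotonate left these genes close to their control levels. Of 78 tested, 17 were higher and 3 lower at an adjusted p under 0.05, which is 25.6% of the members, against 48.1% of the 14857 genes tested (32.3% higher and 15.9% lower). The median log2 fold change was 0.04 for the members and 0.09 for all genes, and the median size of the change was 0.06 against 0.23. By subunit, 6 of 32 small-subunit genes were higher and 0 lower, and 11 of 46 large-subunit genes were higher and 3 lower. The split between higher and lower rests on the scaling. Median-of-ratios scaling, which shifted the all-gene median log2 fold change by -0.12, gave 1 higher and 34 lower, and quantile normalization gave 27 higher and 1 lower. The replicate numbers pair the libraries across groups, and with the number as a block 19 were higher and 5 lower.

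Rpl41, the smallest ribosomal protein, held its call in each of 22 alternatives. It was at 2016, 1938, 1934 and 1988 TPM with crotonate, against 2220, 2170, 2187 and 2139 TPM in control. All crotonate libraries lay below all controls, with a log2 fold change of -0.15 (SE 0.03, adjusted p = 0.00101). Rpl30, a large-subunit protein whose yeast counterpart binds and represses its own transcript, was at 538.7, 533.2, 532.1 and 553.8 TPM with crotonate and at 573.9, 612.2, 557.2 and 605.7 TPM in control. The groups did not overlap and the log2 fold change was -0.12 (SE 0.04, adjusted p = 0.0213). The call ended without the variance trend, or without control replicate 2 or 4 or crotonate replicate 2 or 3, and quantile normalization gave 0.02. Rpl21, in the large subunit, was the other member that fell, by 0.12 on the log2 scale, a call that ended under quantile normalization.

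Among the members that rose with crotonate, the large-subunit protein Rpl17 averaged 1204 TPM ± 30.3 with crotonate and 1061 TPM ± 23.0 in control (SD, n = 4 each; log2 fold change 0.18, SE 0.03, adjusted p = 2.94e-04). Rpl5, which carries 5S rRNA into the ribosome with Rpl11 and can bind Mdm2 outside it, was at 132.8, 129.5, 139.8 and 138.1 TPM with crotonate, against 115.7, 118.7, 117.5 and 102.1 TPM in control. Every crotonate library of Rpl5 was above every control (log2 fold change 0.25, SE 0.06, adjusted p = 0.00381). Rps7, another Mdm2-binding protein, rose by 0.17, and Rps15, Rps20, Rpl24 and Rpl26 rose by 0.16, 0.16, 0.14 and 0.14 on the log2 scale. Each of these calls ended after median-of-ratios scaling, where the log2 fold changes of Rpl17 and Rpl5 were 0.05 and 0.12. Rpl10a and Rpl31 also passed, at 0.18 and 0.14, and lost their calls after median-of-ratios scaling and when summed with their pseudogene rows. The call of Rpl31 also ended without the filter, without the variance trend, and without any 1 of control replicates 2, 3 and 4, crotonate replicates 1, 2 and 4 or MS-275 replicate 1 (adjusted p = 0.0503 to 0.111). Rps4l was the largest change, 26.6, 36.0, 25.4 and 35.7 TPM with crotonate, against 16.9, 22.0, 9.76 and 21.4 TPM in control. The groups of Rps4l did not overlap (log2 fold change 0.83, SE 0.24, adjusted p = 0.0127) and the call stayed in every alternative, but its reads may be shared with Rps4x, which was at 1522 to 1626 TPM in control.

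**Figure D2:**
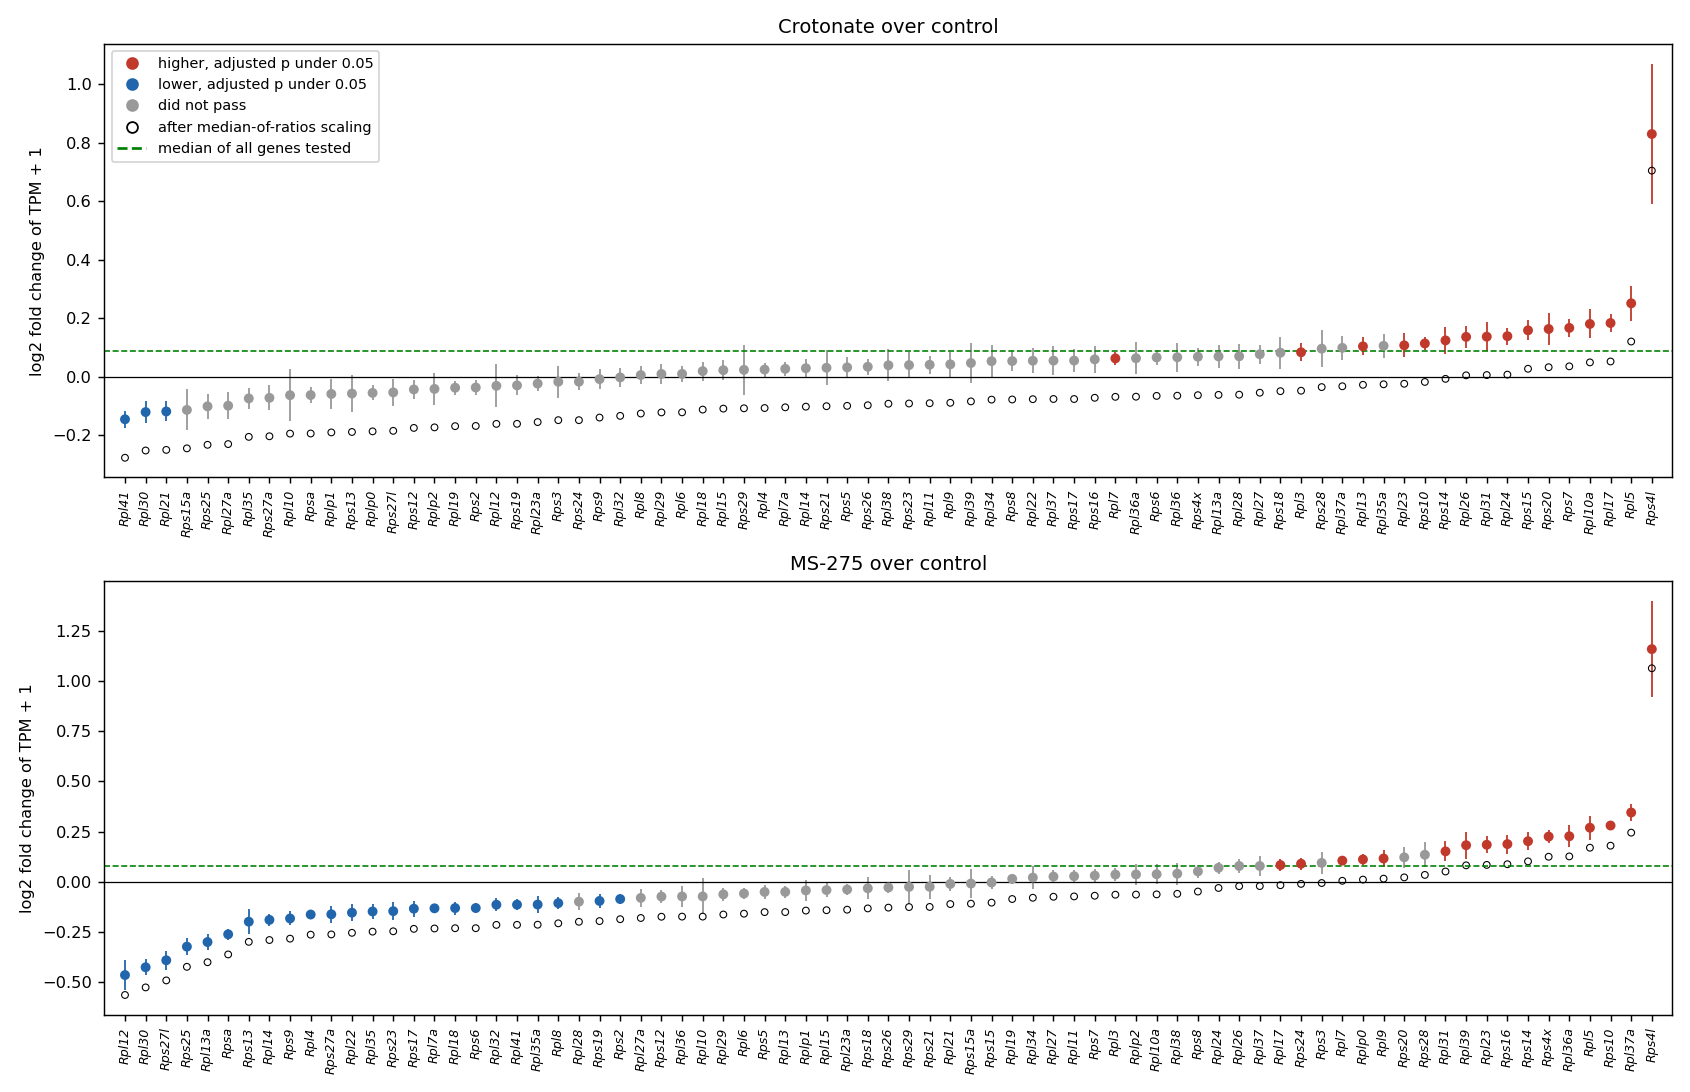
Log2 fold change of TPM + 1 (points, bars give the SE) of 75 of the 78 members for crotonate over control (top) and MS-275 over control (bottom); Rps27 is left out because its SE is 0.80, and 2 others are not shown. Open circles show the values after median-of-ratios scaling, which shifts the members down together, and the dashed line is the median of all genes tested, 0.09 with crotonate and 0.08 with MS-275.

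MS-275 moved the members apart from each other, in both directions and by small amounts. Of 78 tested, 16 were higher and 26 lower, 53.8% in all, against 65.1% of all genes (37.4% higher and 27.6% lower). Their median log2 fold change was -0.04, against 0.08 over all genes, and the median size was 0.11 against 0.36. Among small-subunit genes 6 of 32 were higher and 12 lower, and among large-subunit genes 10 of 46 were higher and 14 lower. Median-of-ratios scaling gave 5 higher and 40 lower, and quantile normalization 20 higher and 22 lower. Of the 20 members named for this comparison, 14 kept their call in each of 22 alternatives, against 2 of the 13 named for crotonate.

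The members that fell most came from both subunits. Rpl12, which forms the base of the stalk, was at 63.5, 61.9, 71.1 and 57.2 TPM with MS-275, against 90.3, 85.0, 95.4 and 81.0 TPM in control, with no overlap (log2 fold change -0.47, SE 0.07, adjusted p = 1.14e-04). Rpl30 was at 438.8, 462.4, 414.9 and 430.1 TPM with MS-275, against 573.9, 612.2, 557.2 and 605.7 TPM in control, again apart (log2 fold change -0.43, SE 0.04, adjusted p = 8.75e-07).

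Rps25, a small-subunit protein needed for translation from some viral internal entry sites, averaged 1431 TPM ± 40.5 with MS-275 and 1793 TPM ± 76.0 in control (SD, n = 4 each; adjusted p = 2.18e-05). Rpl13a, which in human cells also acts outside the ribosome in the GAIT complex, averaged 2375 TPM ± 118 with MS-275 and 2924 TPM ± 65.8 in control (SD, n = 4 each; adjusted p = 2.53e-05). Rpsa, the laminin receptor protein of the small subunit, averaged 958.2 TPM ± 33.6 with MS-275 and 1149 TPM ± 13.8 in control (SD, n = 4 each; adjusted p = 3.77e-06). In log2 terms these are falls of 0.32, 0.30 and 0.26, with all MS-275 libraries below all controls for each gene. Rps13, Rpl14 and Rps9 fell by 0.20, 0.19 and 0.18, the call of Rps13 ending when its copies were added and under quantile normalization. Of the genes that fell, Rpl12 and Rpl13a have a pyrimidine run of the kind searched beside the annotated start, and Rps25 has none there.

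Rps27l was at 643.6, 697.7, 685.3 and 698.4 TPM with MS-275, against 916.6, 944.8, 888.2 and 829.9 TPM in control, with the groups apart (log2 fold change -0.39, SE 0.05, adjusted p = 9.64e-06). Of 15 genes listed as p53 and its targets, 9 were higher with MS-275 and 2 lower (median 0.26). These counts were 7 and 3 after median-of-ratios scaling and 9 and 2 under quantile normalization. Before either scaling, 73.3% were called, against 65.1% of all genes. Trp53inp1, a p53-induced stress protein, was 0.94 higher (adjusted p = 4.08e-10) and Aen, a p53-induced nuclease, fell by 0.30 (adjusted p = 4.99e-05). The transcript of p53 itself, Trp53, averaged 75.3 TPM ± 3.34 with MS-275 and 115.4 TPM ± 3.28 in control (SD, n = 4 each; adjusted p = 5.67e-08).

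Rps10, at the beak of the small subunit and a target of ubiquitin marking on collided ribosomes, rose to 2009, 2058, 2088 and 2041 TPM with MS-275, against 1678, 1657, 1679 and 1735 TPM in control. All 4 treated libraries stood above all controls (log2 fold change 0.28, SE 0.02, adjusted p = 4.14e-07), and the call stayed in each alternative. Rpl37a, a zinc-finger protein of the large subunit, was at 919.8, 984.5, 935.0 and 928.5 TPM with MS-275, against 758.8, 755.3, 748.2 and 702.9 TPM in control. Its log2 fold change was 0.35 (SE 0.04, adjusted p = 1.10e-05), and its call stayed too. No run of the kind searched lies beside its annotated start, and that of Rps10 has 13 bases. Rps4x, the X-linked small-subunit gene, averaged 1844 TPM ± 32.6 with MS-275 and 1578 TPM ± 47.2 in control (SD, n = 4 each; log2 fold change 0.23, adjusted p = 3.44e-05). The low transcribed pseudogene Rps4l was at 34.5, 42.4, 28.8 and 53.01 TPM with MS-275, against 16.9, 22.0, 9.76 and 21.4 TPM in control (log2 fold change 1.16, SE 0.24, adjusted p = 9.56e-04).

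Rpl5 rose with MS-275 too, by 0.27 (SE 0.06, adjusted p = 0.00142), and Rpl36a, Rps14, Rpl23 and Rps16 rose by 0.23, 0.20, 0.18 and 0.19. After median-of-ratios scaling the calls of these last 4 ended, at log2 fold changes of 0.13, 0.10, 0.08 and 0.09. Rpl39, in the wall of the exit tunnel, passed at 0.18 (adjusted p = 0.0329). Its call ended after median-of-ratios scaling, without the filter, without the variance trend and in a fit of the 2 groups alone. It also ended without control replicate 2 or 4 or MS-275 replicate 1 or 2. Each of these values shares its 4 control libraries with the crotonate comparison above.

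**Figure D3:**
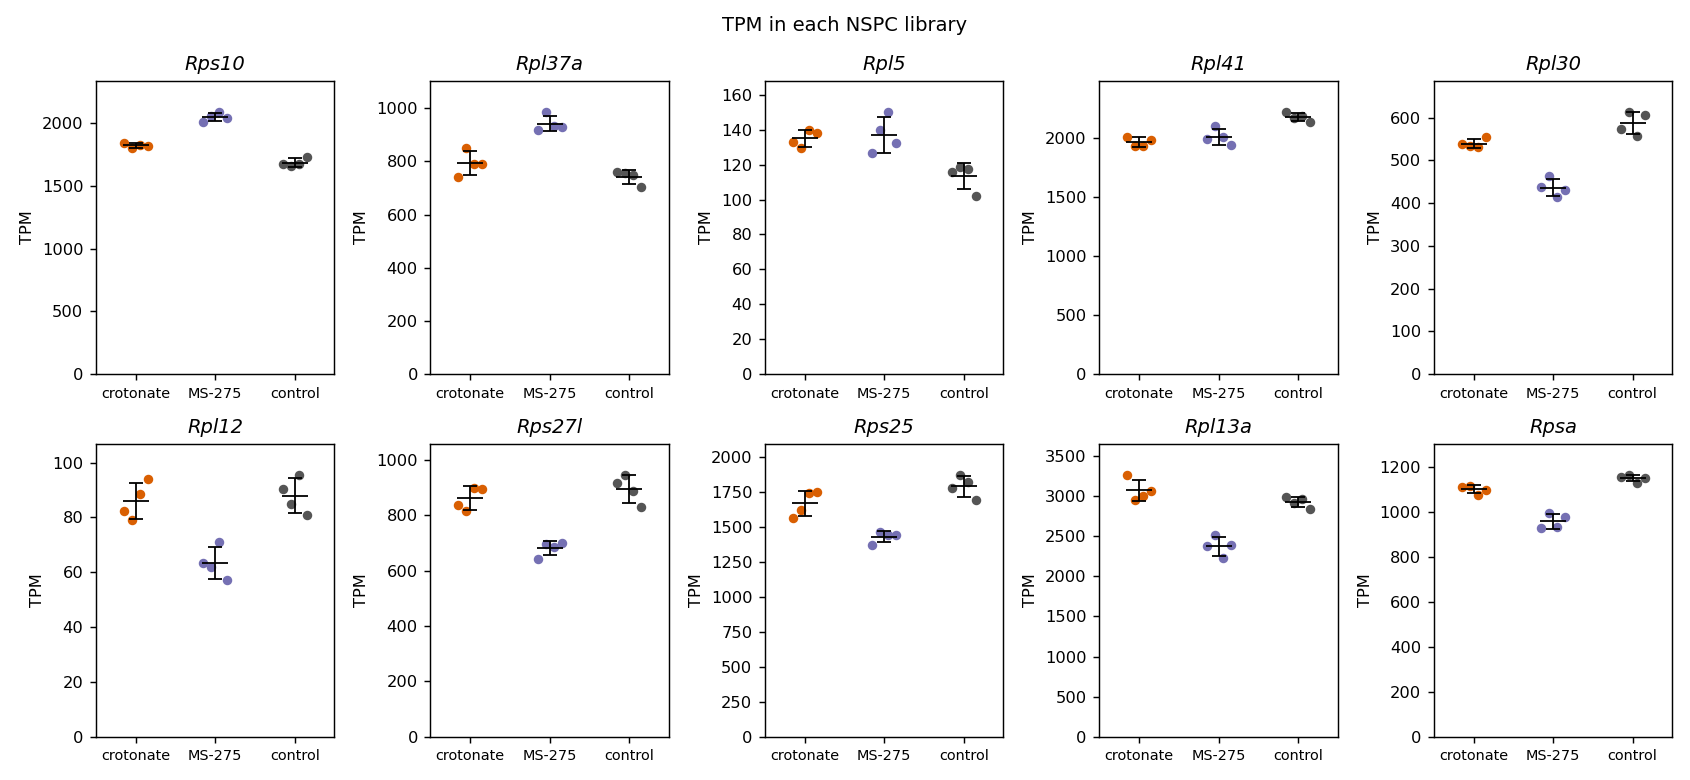
TPM of 10 members in each of the 12 NSPC libraries (points), with the mean and SD of each group of 4 in black and all axes starting at 0. Rps10 and Rpl37a stand highest with MS-275 (2009 to 2088 TPM for Rps10), and Rpl30, Rpl12, Rps27l, Rps25, Rpl13a and Rpsa stand lowest with it.

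Setting MS-275 against crotonate directly tests where the treatments differ. Of 78 members, 8 were higher and 27 lower with MS-275 (44.9%), against 46.7% of all genes (19.3% higher and 27.4% lower), so the share of members called was near that of all genes. Median-of-ratios scaling gave 9 higher and 22 lower. Rpl13a averaged 2375 TPM ± 118 with MS-275 and 3069 TPM ± 134 with crotonate (SD, n = 4 each; log2 fold change -0.37, SE 0.04, adjusted p = 1.22e-05). Rpl35a, Rpl14 and Rpl22, all in the large subunit, were also lower with MS-275, by log2 values of -0.22, -0.22 and -0.21.

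The stalk base protein Rplp0 was at 1961, 2039, 1998 and 1909 TPM with MS-275, against 1736, 1783, 1739 and 1783 TPM with crotonate, a separation with a log2 fold change of 0.17 (SE 0.03, adjusted p = 1.90e-04). Rplp1, a P protein that binds it, did not pass against control and averaged 2943 TPM ± 166 with crotonate, 2973 TPM ± 114 with MS-275 and 3068 TPM ± 213 in control (SD, n = 4 each). Rps24, the highest member, averaged 4095 TPM ± 65.5 with MS-275 and 3802 TPM ± 77.5 with crotonate (SD, n = 4 each; log2 fold change 0.11, adjusted p = 0.0110), but quantile normalization turned its sign to -0.05. Rpl21 was 0.11 higher, a call that ended without crotonate replicate 2 or 4 or MS-275 replicate 4. Rpl36a was 0.16 higher, a call that ended without crotonate replicate 1, 2 or 3 or MS-275 replicate 1 or 3. Without the filter the calls of Rps24, Rpl21 and Rpl36a ended. Without the variance trend those of Rpl21 and Rpl36a ended, and that of Rpl36a ended under quantile normalization too.

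Reads shared with copies change what some rows mean. Rps27, a zinc-finger protein of the small subunit, ranged from 11.2 to 150.3 TPM with crotonate, from 14.05 to 53.2 TPM with MS-275 and from 12.004 to 90.8 TPM in control, while its retrogene row Rps27rt held between 2389 and 3081 TPM in the same libraries. The log2 fold changes of the Rps27 row alone, 0.69 with crotonate and -0.62 with MS-275, had an SE of 0.80 and did not pass. Summed with its copies it averaged 2709 TPM ± 97.8 with crotonate, 3023 TPM ± 127 with MS-275 and 2579 TPM ± 97.1 in control (SD, n = 4 each). On these sums, a choice made after seeing the data, MS-275 was 0.23 higher than control (SE 0.04, adjusted p = 2.00e-04) and crotonate 0.07 higher (adjusted p = 0.151). 

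**Figure D4:**
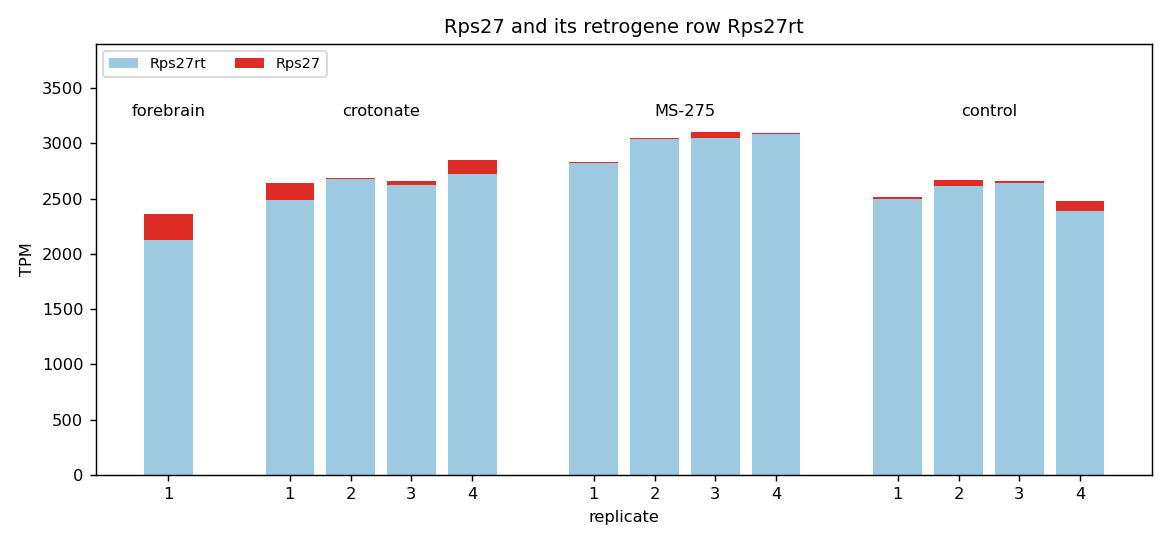
Stacked TPM of Rps27 (red) on its retrogene row Rps27rt (blue) in the forebrain library and each NSPC library by replicate. The Rps27 part varies between replicates of a group (12.004 to 90.8 TPM in control), while the sum stays within a narrow range.

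Copies held 72.7% of the summed TPM of Rpl31, 71.2% of Rps23, 52.0% of Rpl28, 49.7% of Rps16, 48.5% of Rpl37 and 46.9% of Rpl10 in control. With copies added, the MS-275 calls of Rpl31, Rps16, Rps23 and Rps13 ended (adjusted p = 0.162, 0.128, 0.192 and 0.0882), while Rpl36a (0.21) and Rpl14 (-0.29) kept theirs. Rpl28, unchanged as a row with crotonate (0.07, adjusted p = 0.199), was 0.18 higher as a sum (adjusted p = 0.0226). Over the family the counts stayed close, at 17 higher and 3 lower with crotonate and 15 higher and 24 lower with MS-275. Only copies named after their parent could be added, so rows such as these are uncertain as measures of 1 gene.

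In the explants, by the authors' deposited table, most of the family was slightly higher with crotonate. Of the 78 members with an adjusted p, 48 were higher and 1 lower, against 20.2% of 14507 genes called (10.5% higher and 9.75% lower). The members' median log2 fold change in the authors' deposited table was 0.11, against 0.002 for all genes, and 46 of the called members changed by less than 0.25. Among genes with a mean normalized count of at least 1000, 66.2% of members were called, against 35.2% of all genes. The members' median mean count was 6710, against 462.9 for all genes with an adjusted p, and counts above 1000 were not matched. The part of count level in these calls was not tested. Of the erythroid markers with an adjusted p in the authors' deposited table, 4 of 5 were lower with crotonate (median -0.44), and the adult-type globin Hbb-bs was at -0.44 (SE 0.02). Of 10 neural progenitor markers there, 1 was higher and 6 lower (median -0.13), and of 10 neuron markers 4 were higher and 3 lower (median -0.01). The part of these shifts in that of the family was not tested.

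Rpl30 stood apart in the explants, at a log2 fold change of 1.51 (SE 0.07, mean count 2400, adjusted p = 1.31e-97) in the authors' deposited table. In NSPCs the same gene was lower with crotonate, by the values given above, and the difference between the systems was not tested, since strain, culture and RNA preparation differ as well. Other members that passed with small p-values in the authors' deposited table were Rpl26, which can bind p53 mRNA, at 0.32 (SE 0.02, adjusted p = 5.57e-40), Rplp1 at 0.24 (SE 0.02, adjusted p = 1.62e-25), Rpl13 at 0.21 (SE 0.02, adjusted p = 3.48e-28) and Rpl13a at 0.13 (SE 0.01, adjusted p = 6.04e-17).

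**Figure D5:**
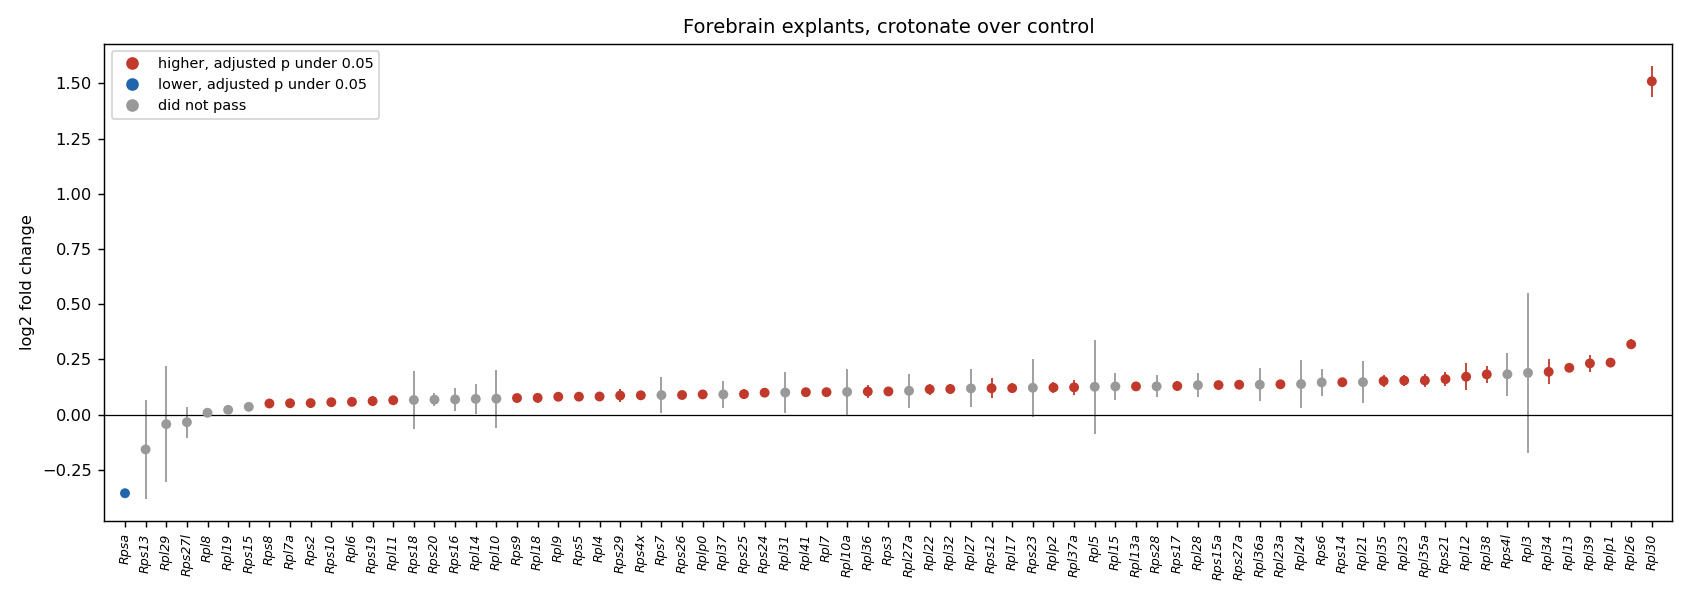
Log2 fold change of crotonate over control explants with its SE, from the authors' deposited table, for 75 of the 78 members with an adjusted p; Rps27 is left out because its SE is 1.58, and 2 others are not shown. Most members lie a little above 0 around 0.11, Rpl30 stands at 1.51 and Rpsa at -0.36.

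Rpsa was the 1 member lower in the explants, at -0.36 (SE 0.02, mean count 21657, adjusted p = 7.92e-89) in the authors' deposited table. Its processed pseudogene Rpsa-ps10 was 1.61 higher there (SE 0.03, mean count 4842). Group means implied by the authors' deposited table, summed over Rpsa and its copies, gave -0.02. Rps3a1, a small-subunit gene outside the symbol rule, was at -0.50 and its processed copies Rps3a2 and Rps3a3 at 1.87 and 1.68 in the authors' deposited table. Its implied sum was a smaller fall, at -0.10. Rpl3 had 94.0%, Rps18 88.0% and Rpl34 79.9% of their summed mean counts in copies in that table, so their single rows carry little of the family's signal.

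The forebrain library can be set beside the control NSPCs only as a description, with 1 library. At 2-fold, 2 of 78 members were higher and 2 lower, against 24.9% of genes higher and 11.0% lower. The median log2 difference was -0.11 for the members and 0.35 for all genes. A value outside the range of the 4 controls was found for 72 members, 29 above and 43 below. Rps27l was at 218.3 TPM in forebrain and 894.9 TPM in control NSPCs, a log2 difference of -2.03. Rps4l was at 70.2 TPM in forebrain and 17.5 TPM in control, a difference of 2.00.

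The other members past 2-fold share reads with copies. Rps27 was at 232.4 TPM in forebrain and 43.0 TPM in control, but with its copies at 2362 and 2579 TPM. Rpl10 was at 469.4 TPM in forebrain and 1005 TPM in control, and at 1528 and 1893 TPM with copies. Below 2-fold, Rpl21 (522.8 TPM in forebrain and 987.7 TPM in control), Rpl36a (771.2 and 1289 TPM) and Rplp1 (1919 and 3068 TPM) were lower, and Rpl31 (798.1 and 445.7 TPM), Rps15a (1085 and 640.1 TPM) and Rpl37 (498.6 and 302.6 TPM) were higher. With copies, Rpl31 was at 1736 TPM in forebrain and 1632 TPM in control, Rpl37 at 790.3 and 587.2 TPM, and Rpl36a at 1089 and 1917 TPM. The forebrain library also held the erythroid RNA given above, and its part in these differences was not tested.

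Most members carried histone marks at their start in the forebrain. A peak within 1 kb of the start (of either gene end for the 22 genes without a strand) was present at 78 of 83 members for H3K9ac (94.0%), against 84.9% of tested genes with a position, and at 77 for H3K9cr (92.8%), against 74.7%. In the authors' lists the fold enrichment of these peaks had a median of 40.5 for members and 20.4 for tested genes for H3K9ac, and of 17.0 and 10.0 for H3K9cr. The 5 members without an H3K9ac peak are the silent ones named above, which were not tested, while the comparison holds only tested genes. Rpl17 had an H3K9ac peak and no H3K9cr peak. Rpl27a, a large-subunit gene, had the highest H3K9cr peak of the members, at a fold of 34.8, with an H3K9ac peak of 81.7. Rps4l, Rpl39 and Rps4x had the lowest H3K9cr peaks, at 4.45, 6.54 and 7.07.

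The 250 bases upstream of the Rpl27a start (chr7:109518945-109519194, plus strand, GRCm38.p6, RefSeq) are shown because the member with the highest H3K9cr peak is the one they precede. Capitals mark CCGGAA, the core of ETS-type sites, and GGGCGG, the GC box, read on both strands.
Rpl27a: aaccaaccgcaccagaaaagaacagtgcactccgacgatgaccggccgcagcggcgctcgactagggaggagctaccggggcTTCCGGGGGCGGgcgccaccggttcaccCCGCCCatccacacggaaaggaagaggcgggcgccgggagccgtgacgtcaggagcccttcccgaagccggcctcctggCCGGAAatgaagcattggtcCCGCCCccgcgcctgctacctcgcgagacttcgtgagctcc
The counts below, apart from that of TATAA, cover 250 bases upstream to 50 bases downstream of the start, not only the stretch printed. CCGGAA on either strand was present at 33 of 61 member genes (54.1%), against 30.5% of tested genes, and GGGCGG at 36 (59.0%), against 69.6%. AAGATGG, the core read by YY1, was present at 9 members (14.8%), against 8.16%, and CACGTG, the E-box read by Myc, at 6 (9.84%), against 11.5%. The letters TATAA between 45 and 16 bases upstream were present at 4 members (6.56%), against 2.38%. These are matches of letters and not measured sites, and the 61 member genes include the untested ones named with the start sites.

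In NSPCs the peak lists give positions alone, from 1 library a group, and their calling threshold is not given in the sources used here. Member shares below are of all 83, which include the 5 silent, untested genes without a peak. They are therefore lower than shares of the tested members alone, while the comparison holds only tested genes. A Kcr peak was present at 58 members with crotonate and 11 with MS-275, against 63 in control (69.9%, 13.3% and 75.9%), where tested genes had 69.8%, 18.1% and 60.2%. A Kac peak was present at 57 members with crotonate and 9 with MS-275, against 72 in control (68.7%, 10.8% and 86.7%), where tested genes had 65.1%, 19.8% and 68.3%. Between crotonate and control, 54 members had a Kcr peak in both lists, 4 (Rpl24, Rpl35, Rpl8 and Rps23) with crotonate alone and 9 in control alone. Over tested genes the shares ran the other way, 16.0% with crotonate alone and 6.36% in control alone, against 4.82% and 10.8% of members. A larger share of members had a control peak to begin with (75.9%, against 60.2%). Of genes without a control Kcr peak, 4 members gained one and 16 did not, against 2206 and 3282 tested genes. Of genes with one, 9 members lost it and 54 kept it, against 876 and 7411 tested genes. The part of the control level in this difference was not tested. The MS-275 lists are shorter as a whole, with 5845 Kcr and 7555 Kac peaks, against 17669 and 23427 in control, so the loss at members cannot be told apart from that of the library. No member had a Kcr or Kac peak with MS-275 alone.

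Most genes that build ribosomes were lower with both treatments, in comparisons that share their control libraries. Of 42 ribosome biogenesis factors, 1 was higher and 26 lower with crotonate, and 0 were higher and 38 lower with MS-275, with median log2 fold changes of -0.22 and -0.55. These are 61.9% and 90.5% lower, against 15.9% and 27.6% of all genes, whose median size of change was 0.23 and 0.36. After median-of-ratios scaling the counts were 0 and 33 with crotonate and 0 and 40 with MS-275. That scaling shifted the all-gene medians by -0.117 and -0.0903, so it could not turn a fall into a rise. Under quantile normalization the counts were 0 and 30 with crotonate and 0 and 38 with MS-275, with medians of -0.21 and -0.51. Gnl3 (nucleostemin, a nucleolar GTPase of stem cells) averaged 117.1 TPM ± 4.58 with crotonate, 72.6 TPM ± 2.92 with MS-275 and 161.8 TPM ± 10.4 in control (SD, n = 4 each). Ncl (nucleolin) averaged 235.9 TPM ± 11.1 with MS-275 and 461.5 TPM ± 27.1 in control (SD, n = 4 each; log2 fold change -0.96, adjusted p = 2.68e-09). Nhp2, of the box H/ACA particle that guides pseudouridylation, was 0.48 lower on the log2 scale with crotonate, at 146.5 TPM ± 7.14 with crotonate and 204.9 TPM ± 7.53 in control (SD, n = 4 each). Rcl1, which acts in 18S processing, was the factor higher with crotonate, at 0.20 (adjusted p = 0.0113), and lost its call under both other scalings.

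Of 9 genes listed as chaperones and importers of ribosomal proteins, 0 were higher and 6 lower with crotonate, and 1 was higher and 7 lower with MS-275 (66.7% and 88.9%, against 48.1% and 65.1% of all genes). Median-of-ratios scaling gave 0 and 9 with crotonate and 0 and 8 with MS-275. Under quantile normalization these counts were 0 and 5, and 1 and 7. Grwd1, the chaperone of Rpl3, fell by 0.53 with crotonate (adjusted p = 7.37e-05), and the importers Kpnb1 and Ipo5 fell by 0.74 and 0.57 with MS-275 (adjusted p = 7.72e-09 and 8.46e-09). Aamp, listed with them, was the 1 higher with MS-275, at 0.14, and did not pass after median-of-ratios scaling. Of 11 RNA polymerase I genes, 2 were higher and 3 lower with crotonate and 2 higher and 6 lower with MS-275. These are 45.5% and 72.7% called, near the 48.1% and 65.1% of all genes. Median-of-ratios scaling gave 1 and 4 with crotonate and 2 and 7 with MS-275. With quantile normalization the counts of these genes were 2 and 4, and 2 and 7. Among these the rDNA factor Ubtf fell by 0.34 and 0.49, while the subunit Polr1d rose by 0.19 and 0.32, the first of these not passing after median-of-ratios scaling.

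Translation factors split. Of 35 initiation genes, 6 were higher and 13 lower with crotonate and 1 was higher and 25 lower with MS-275. These are 54.3% and 74.3% called, against 48.1% and 65.1% of all genes. Median-of-ratios scaling gave 0 and 24 with crotonate and 1 and 27 with MS-275. With quantile normalization these counts were 7 and 13, and 5 and 22. The helicase Eif4a1 averaged 842.3 TPM ± 26.0 with MS-275 and 1424 TPM ± 56.4 in control (SD, n = 4 each; log2 fold change -0.76, adjusted p = 2.18e-09), and Eif4g2 fell by 0.31 with crotonate and by 0.67 with MS-275. Eif4b, a cofactor of the Eif4a1 helicase and itself encoded by an mRNA with a pyrimidine tract, rose by 0.16 and 0.19, the first not passing after median-of-ratios scaling. Of 10 elongation genes, 2 were higher and 3 lower with crotonate, and 5 higher and 3 lower with MS-275 (50.0% and 80.0%). Median-of-ratios scaling gave 2 and 7 with crotonate and 5 and 4 with MS-275. With quantile normalization these counts were 2 and 3, and 6 and 2. Eef1a2, the elongation factor form of neurons and muscle, averaged 28.0 TPM ± 3.90 with crotonate, 15.5 TPM ± 2.65 with MS-275 and 4.65 TPM ± 0.844 in control (SD, n = 4 each). Eif5a fell by 0.33 with crotonate and by 0.74 with MS-275 (adjusted p = 3.12e-05 and 1.15e-08), and Tpt1, another tract-bearing mRNA, was 0.27 higher with MS-275 (adjusted p = 1.87e-06).

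Of 8 ribosomal proteins and relatives outside the symbol rule, 1 was higher and 2 lower with crotonate and 1 higher and 4 lower with MS-275. These are 37.5% and 62.5% called, against 48.1% and 65.1% of all genes. Median-of-ratios scaling gave 1 and 5 for both treatments. Under quantile normalization these counts were 2 and 2 with crotonate and 2 and 3 with MS-275. Rack1, a scaffold protein on the head of the small subunit, averaged 980.5 TPM ± 35.0 with crotonate, 960.6 TPM ± 29.0 with MS-275 and 836.7 TPM ± 9.11 in control (SD, n = 4 each; log2 fold changes 0.23 and 0.20, adjusted p = 7.19e-05 and 1.03e-04). Rpl36al, a copy of Rpl36a on another chromosome, fell by 0.32 with MS-275 (adjusted p = 3.35e-06). Of 78 mitochondrial ribosomal proteins, 9 were higher and 15 lower with crotonate and 6 higher and 40 lower with MS-275, with medians of -0.04 and -0.15. These are 30.8% and 59.0% called, against 48.1% and 65.1% of all genes. Median-of-ratios scaling gave 4 and 33 with crotonate and 4 and 55 with MS-275. Under quantile normalization these counts were 12 and 15, and 9 and 30. Mrpl18 fell by 0.81 and Mrpl12 by 0.71 with MS-275 (adjusted p = 3.87e-07 and 3.01e-08).

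Among 15 growth regulators of the mTOR and Myc pathways, 3 were higher and 6 lower with crotonate and 1 was higher and 6 lower with MS-275. These are 60.0% and 46.7% called, against 48.1% and 65.1% of all genes. Median-of-ratios scaling gave 1 and 8 with crotonate and 1 and 9 with MS-275. With quantile normalization these counts were 2 and 6, and 1 and 7. Larp1, the protein that binds the pyrimidine tract, averaged 47.2 TPM ± 1.53 with crotonate, 39.1 TPM ± 1.45 with MS-275 and 53.7 TPM ± 1.66 in control (SD, n = 4 each; log2 fold changes -0.18 and -0.45, adjusted p = 0.00339 and 1.09e-06). Mxi1, an antagonist of Myc, rose by 0.49 and 0.69, and Rps6kb1, the kinase of Rps6, fell by 0.54 with MS-275 (adjusted p = 8.03e-06). With crotonate, 7 of the 15 genes listed as p53 and its targets were higher and 2 lower (60.0% called, against 48.1% of all genes). After median-of-ratios scaling these counts were 3 and 3, and under quantile normalization 9 and 2. Trp53 itself was 1 of the 2 lower before either scaling (-0.38, adjusted p = 1.03e-05). Of the 14 targets without Trp53, 7 were higher and 1 lower. Cdkn1a, the cell cycle inhibitor, was 0.36 higher (adjusted p = 1.08e-06). In the explants, 5 biogenesis factors of 42 were higher and 4 lower by the authors' deposited table (21.4%, near the 20.2% of all genes), with a median of 0.04.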

How the data were processed

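RNA was measured in 12 NSPC libraries and 1 forebrain library as TPM, which the authors deposited as 1 table (Salmon 1.0.0 and GRCm38, per the submitters' processing notes). The explant values are the authors' deposited table of mean normalized counts (a signal value), Wald scores, log2 fold changes, SE and p-values (DESeq2 1.26.0 is in the submitters' processing notes), and its direction rests on the deposited name. Peak lists were deposited with positions and, for forebrain, fold enrichment and -log10 p and q values (MACS2 2.2.5, per the submitters' processing notes).

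The 14857 genes reaching 1 TPM in 4 or more of the 12 libraries were tested on log2(TPM + 1) with limma 3.58.1 in R 4.3.3, in 1 fit of 3 groups with a trended variance and Benjamini-Hochberg adjustment, at 0.05; fold changes on this scale understate those of low genes. Per comparison, up to 10 members a direction with the largest change and at least 5 TPM were named. Members and lists were chosen with earlier results of these data known. Same-numbered libraries deviated together (12 correlations of 0.119 to 0.241, against -0.197 to 0.0993 for the other 36), so the numbers pair the samples. The p-values given for the NSPCs come from the fit without this pairing. With the number as a block, the 51 named NSPC results kept direction and call, and 17 members were higher and 27 lower with MS-275. Peaks were assigned within 1000 bp of a RefSeq start. Scaling, filter, pseudocount, trend, block, summed copies and left-out libraries were varied. Some genes of the tables are counted but not reported here by name.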

Additional observations from a re-analysis of the deposited data

Results flagged for a closer look

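In groups of 4 libraries, 1 library stood far from the other 3 by Dixon's criterion in 7 of 126 groups checked, where chance gives about 1 in 20. Crotonate replicate 4 was apart for Rps20 at 159.7 TPM, for Rpl24 at 1558 TPM and for Rps13 at 1137 TPM. MS-275 replicate 3 was apart for Rpl10 at 1129 TPM and for Rps27 at 53.2 TPM. Control replicate 4 was apart for Rpl23 at 826.2 TPM and for the share of TPM held by all members, at 9.66%.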

How the results depend on the processing

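Of 53 named results, 31 kept direction and call in every alternative run. In 2 results the sign turned, both under quantile normalization: Rpl30 with crotonate (0.024) and Rps24 between MS-275 and crotonate (-0.046). Median-of-ratios scaling gave 1 member higher and 34 lower with crotonate, 5 and 40 with MS-275, and 4 lower in forebrain; quantile normalization gave 27 and 1 with crotonate. With the replicate block, 5 were lower with crotonate, and no other count of calls moved by over 1.5 times. Without the filter 10 were higher with crotonate and 4 between MS-275 and crotonate, and without the variance trend 10 and 5. The cause was not tested. With pseudogene rows the share of TPM was 10.7% with crotonate, 10.3% with MS-275, 10.5% in control and 9.70% in forebrain. Leaving out 1 library at a time gave 11 to 17 higher and 2 to 5 lower with crotonate, 12 to 17 and 24 to 28 with MS-275, 5 to 9 and 25 to 29 between them, and 2 to 2 each way in forebrain. The count of 11 came without control replicate 3 or crotonate replicate 2, that of 5 higher between treatments without crotonate replicate 2, and that of 5 lower without crotonate replicate 4. Rps20 lost its crotonate call without control replicate 1 or crotonate replicate 1, 2 or 3. The implied explant sum for Rpsa was -0.02. No paired analysis was possible because the explant table has no values per library. Depth is unknown for TPM, which limits what can be said of the lowest rows.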
